A study of Mus musculus with 141 samples.

Results

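The vitamin D pathway and its klotho arm were followed through 6 genes out of 24423 in the deposited gene tables. The members were listed by symbol, with earlier results of these data known, for the steps of the pathway that liver and kidney divide between them. They are the plasma carrier *Gc*, the hydroxylases *Cyp2r1*, *Cyp27b1* and *Cyp24a1*, the receptor *Vdr* and the co-receptor klotho, *Kl*. RNA was measured by RNA-seq in whole liver, lung and kidney of 1 male mouse from each of 47 Collaborative Cross (CC) strains, recombinant inbred lines that each carry a mosaic of the same founder genomes, which gave 47 libraries per tissue. All mice were adults of 8 to 12 weeks on NTP 2000 diet and a 12-hour light cycle, held in clear-air chambers of metal mesh for 6 hours on weekdays over 2 weeks before nembutal was given. Because each strain is 1 mouse, a difference between strains and a difference between individual mice cannot be told apart. RNA had an integrity number of at least 7.0 and was made into libraries after depletion of ribosomal RNA.

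The hormone is built across organs. *Cyp2r1*, a microsomal P450, converts vitamin D to calcidiol in liver, which circulates bound to the vitamin D binding protein made from *Gc*; the proximal tubule of the kidney takes the complex up through the receptors megalin and cubilin, *Cyp27b1* turns calcidiol into the active hormone calcitriol, and *Cyp24a1* inactivates both. Calcitriol acts through *Vdr*, a nuclear receptor that pairs with a retinoid X receptor, raises *Cyp24a1* and lowers *Cyp27b1*. FGF23, a hormone from bone, needs klotho on the tubule cell to signal, and it shifts the same pair of enzymes towards inactivation and lets phosphate pass into urine.

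In the NCBIM37 build that the files use, the GENCODE annotation placed *Gc* at chr5:89846549-89886790 and *Kl* at chr5:151755182-151796384. *Cyp2r1* lay at chr7:121693680-121706486, *Cyp27b1* at chr10:126485306-126490062, *Cyp24a1* at chr2:170308208-170322645 and *Vdr* at chr15:97684856-97741061. *Gc*, *Cyp2r1*, *Cyp24a1* and *Vdr* were on the minus strand, and *Cyp27b1* and *Kl* on the plus strand. The *Cyp24a1* interval overlaps *Pfdn4* on the opposite strand, and whether reads were counted by strand is not given in the sources used here. The deposited tables name 3 transcripts for *Cyp2r1* and 1 for each of the other 5 members. Counts came from uniquely aligned reads, and genes with more than 1 named transcript were less often above 3 counts in the median library than genes with 1 (29.2% of 6112 against 47.9% of 18311 in liver), so the level of *Cyp2r1* set against the other members is uncertain.

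Proximal promoters of 5 members are shown because the members fell into a liver pair and a kidney group in the data that follow. The RefSeq promoter table for GRCm38.p6 held those 5, and *Cyp24a1* had no entry. Each line gives the 120 bases that end just before the annotated start, 5′ to 3′ on the gene's own strand, with the motif matches named below in capitals.
*Gc* (chr5:89457899-89458018, minus): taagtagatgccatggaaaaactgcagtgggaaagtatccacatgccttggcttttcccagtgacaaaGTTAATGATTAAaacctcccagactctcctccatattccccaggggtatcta
*Cyp2r1* (chr7:114562973-114563092, minus): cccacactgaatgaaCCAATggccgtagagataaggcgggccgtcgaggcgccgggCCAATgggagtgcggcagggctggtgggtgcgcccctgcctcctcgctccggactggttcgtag
*Cyp27b1* (chr10:127048126-127048245, plus): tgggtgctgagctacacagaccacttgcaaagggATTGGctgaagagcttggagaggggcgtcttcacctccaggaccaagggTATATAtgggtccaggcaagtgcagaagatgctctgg
*Vdr* (chr15:97908297-97908416, minus): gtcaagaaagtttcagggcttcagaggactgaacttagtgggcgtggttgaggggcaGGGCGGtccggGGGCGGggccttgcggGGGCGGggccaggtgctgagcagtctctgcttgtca
*Kl* (chr5:150952487-150952606, plus): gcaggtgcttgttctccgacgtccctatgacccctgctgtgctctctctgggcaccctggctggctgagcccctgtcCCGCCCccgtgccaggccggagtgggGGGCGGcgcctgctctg

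In *Gc* the capitals mark an element of the hepatocyte nuclear factor HNF1, searched as GTTAAT, any base and ATTAA, which 0.0609% of the 32851 RefSeq promoter windows of 300 bases (250 before the start and 50 after it) held on either strand. In *Cyp2r1* they mark CCAAT on the plus strand at 2 places, and in *Cyp27b1* the same box on the minus strand together with TATATA. The box CCAAT was in 37.4% of windows and TATATA in 5.67%. In *Vdr* and *Kl* they mark the GC box GGGCGG, which 35.7% of windows held, with 3 matches before the start of *Vdr* and 2 before that of *Kl*. TATAAA, in 13.6% of windows, was searched on both strands and was in none of the 5. No pair of the motifs shown overlapped, and each match is a run of letters and not a measured site. The *Gc* window was 40.3% G or C, that of *Kl* 67.3% and that of *Cyp2r1* 64.3%, against a median of 52.7% over all windows.

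The members split between the organs in every mouse or nearly so. *Gc* and *Cyp2r1* were higher in liver, and *Cyp27b1*, *Cyp24a1*, *Vdr* and *Kl* were higher in kidney. With limma-voom on TMM-scaled counts, fitted to all 12127 genes that passed the filter on low counts with strain as a block, a gene was called at an adjusted p of at most 0.1 and a log2 fold change of at least 1 in either direction. All 6 members passed that filter and all 6 were called between liver and kidney, where 36.4% of the genes tested were called. Between liver and lung 4 of 6 were called, against 55.0% of genes, and between lung and kidney 5 of 6, against 46.1%. With only liver and lung in the fit 4 members passed the filter, and with only lung and kidney 5. Some members thus entered through the tissue where they are high. A call of such a gene is largely set by the filter, so these counts are a description and no support for the split. The call for *Cyp24a1* between liver and lung rests on a median of 1 count in both tissues and is treated below as not resolved. In a bulk tissue, fewer cells of a type and less RNA per cell cannot be told apart.

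**Figure D1:**
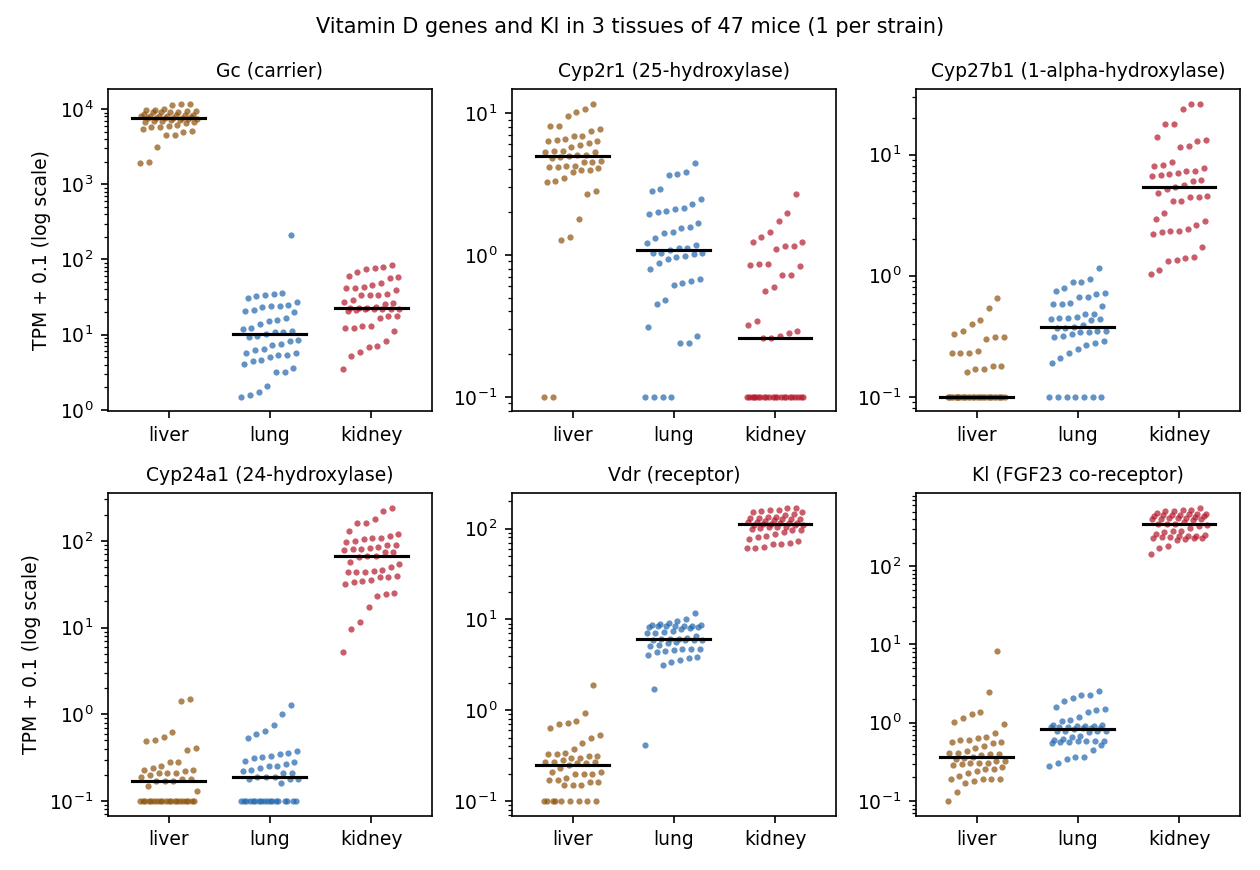
TPM plus 0.1 on a log axis for the 6 genes in liver, lung and kidney, with 1 point per mouse (n = 47 per tissue) and a line at the median. *Gc* and *Cyp2r1* sit highest in liver (medians 7646 and 4.88 TPM), and the other 4 genes highest in kidney (medians 5.31, 66.6, 113 and 350 TPM).

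The libraries held between 1738046 and 42158454 counts, with a median of 9043226, and 3 counts corresponded to 0.560 CPM in the median liver, 0.222 in lung and 0.336 in kidney. The hepatocyte and proximal tubule marker sums were each highest in their own tissue. The 6 hepatocyte genes summed to a median of 102518 CPM in liver, 522 in kidney and 59.3 in lung. The 8 proximal tubule genes summed to 6768 CPM in kidney, 1753 in liver and 16.3 in lung. Both lists hold genes shared by liver and kidney, such as *G6pc* (pooled ratio 2.39, liver over kidney) and *Slc27a2* (1.81, kidney over liver). A few libraries stood apart: the liver of CC033 had the highest lung epithelium sum of the livers (156 CPM, median 19.2), the kidney of CC027 the highest hepatocyte sum of the kidneys (1452 CPM), the liver of CC035 held kidney transcripts and the lung of CC015 few B cell ones. Their values are given where they touch a member.

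*Gc*, whose protein carries vitamin D metabolites in plasma, was among the abundant transcripts of liver. Its level in liver ran from 1910 TPM in CC033 to 11813 in CC037, with a median of 7646. In TMM-scaled CPM the lowest liver was that of CC031, at 3283 against a median of 8277. In kidney it ran from 3.36 to 84.4 TPM with a median of 22.6, and in lung from 1.39 to 212 TPM with a median of 10.1. No liver came near any kidney or lung. The log2 fold change of liver over kidney was 9.12 (SE 0.13, limma-voom adjusted p = 2.2e-82) and that of liver over lung was 10.78 (SE 0.14, adjusted p = 6.25e-87), and all 47 mice had the higher level in liver. Over all libraries the summed counts over TMM-scaled library size (pooled CPM) differed 529-fold between liver and kidney (95% exact binomial interval 518 to 541). Between liver and lung they differed 1521-fold (1474 to 1569). These intervals, like those given below for other ratios of summed counts, cover counting error only.

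Kidney held more *Gc* than lung, by 1.67 on the log2 scale (SE 0.14, adjusted p = 2.55e-20), in 37 of 47 mice, and the ranges overlapped. The lung and kidney signals differed in their relation to albumin. *Alb*, the transcript of albumin, marks hepatocytes. The summed counts of *Gc* over those of *Alb* gave a ratio of 0.112 in liver, 0.114 in lung and 0.328 in kidney. Across the 47 lungs, *Gc* followed the summed log2 CPM of the 6 hepatocyte genes with r = 0.97 (Spearman's rho 0.96, permutation p = 1e-05, the smallest that 100000 permutations can give, adjusted p = 0.00027 over 27 relations with markers and depth). Without the 2 lungs farthest from the median r was 0.96. The lung with most *Gc*, that of CC010, had 463 counts of it and 2919 of *Alb*, and the lung of CC015 had 140. Without these 2 lungs the pooled ratio was 0.109. Across kidneys *Gc* and the same 6 genes gave r = 0.41 (rho 0.39, permutation p = 0.00442, adjusted p = 0.0398) and r = 0.32 without the 2 farthest kidneys. Of these genes *G6pc* and *Ttr* were higher in kidney than in lung (pooled ratios 356 and 26.3), whereas *Alb*, *Apoa1*, *Tat* and *Cps1* were not. The r of the kidneys therefore cannot be read as the same marker relation as that of the lungs. In 6 kidneys *Gc* exceeded *Alb* in TPM: the kidney of CC061 held 293 counts of *Gc* and 9 of *Alb*, and that of CC030 held 250 and 22. No liver and no lung showed that order. The kidney of CC027, highest in the hepatocyte sum, was also highest in *Gc* (84.4 TPM). Within liver, *Gc* followed the same markers with r = 0.46 (rho 0.45, permutation p = 0.0013, adjusted p = 0.0175), and r = 0.41 without the 2 farthest livers.

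**Figure D2:**
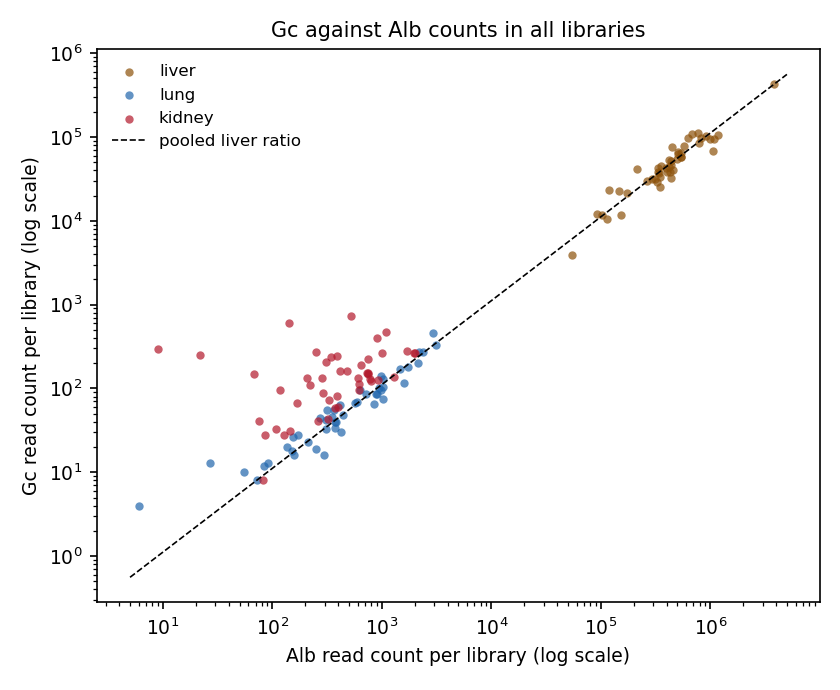
Counts of *Gc* against counts of *Alb* in each library of the 3 tissues, both on log axes, with a dashed line at the pooled liver ratio of 0.112. The lungs lie along the line of the livers, whereas most kidneys lie above it, in 2 cases (CC030 and CC061) with fewer than 25 counts of *Alb*.

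*Cyp2r1*, which starts the activation of vitamin D, had few counts in each tissue. Liver ranged from 0 to 11.5 TPM with a median of 4.88, lung from 0 to 4.36 with a median of 0.99, and kidney from 0 to 2.59 with a median of 0.16. In counts the medians were 26, 5 and 1. It was listed at 0 in 22 kidneys, 4 lungs and 2 livers, and the ranges of the tissues overlapped. Liver exceeded kidney by 4.44 on the log2 scale (SE 0.21, limma-voom adjusted p = 4.21e-38) and lung by 3.46 (SE 0.20, adjusted p = 2.64e-30). The pooled CPM was 20.5-fold higher in liver than in kidney (95% exact binomial interval 17.1 to 24.9) and 11.8-fold higher than in lung (10.4 to 13.5). Liver held the higher level in 45 of 47 mice against kidney, with the other 2 at 0 in both, and in 45 of 47 against lung.

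The 2 livers without a *Cyp2r1* read were those of CC029 and CC033. They held 8302859 and 5058429 counts, ranks 17 and 6 from the lowest of the 47 livers, and 3 counts there would have meant 1.86 and 5.09 CPM. The liver median was 4.71 CPM, so the liver of CC029 lay below it while that of CC033 could not be told from it in TMM-scaled CPM. In the median liver 3 counts came to 0.560 CPM, and the median liver total was 10423382 counts. A low TMM factor of the CC033 liver, more than its depth, therefore set its 5.09 CPM. In TPM both livers were at 0, below the liver median. Their *Gc* was low in TPM (3173 in CC029 and 1910 in CC033, median 7646) but nearer the liver median in TMM-scaled CPM, at 7213 and 6605 against 8277. For CC033 the CPM value rests on the same TMM factor. The lungs of the same mice held 8 and 18 *Cyp2r1* counts, and the lung of CC033 ranked 1 of 47 from the highest in CPM. Between lung and kidney *Cyp2r1* was higher in lung by 0.98 (SE 0.21, adjusted p = 9.66e-06), just under the fold limit, and in 35 of 47 mice. Its pooled ratio was 1.73 (95% interval 1.40 to 2.16), with the kidney median at 1 count.

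*Cyp27b1*, the mitochondrial enzyme that makes calcitriol, was above 3 counts in all 47 kidneys and in few other libraries. Kidney ranged from 0.93 TPM in CC031 to 26.3 in CC020, with a median of 5.31. Lung ranged from 0 to 1.06 TPM with a median of 0.28, and liver from 0 to 0.56 with a median of 0. The lowest kidney lay below the highest lung in TPM but above every liver. In CPM no kidney overlapped either tissue, the lowest kidney being at 0.818 and the highest lung at 0.422. The gene was higher in kidney in 47 of 47 mice, by 4.69 over liver (SE 0.17, limma-voom adjusted p = 2.14e-46) and by 4.47 over lung (SE 0.17, adjusted p = 2.49e-45) on the log2 scale. With liver and lung medians of 0 and 2 counts these fitted values depend on the prior count. The pooled CPM was 55.5-fold higher in kidney than in liver (95% exact binomial interval 39.4 to 80.8) and 31.0-fold higher than in lung (25.9 to 37.3). No fold is given between liver and lung, where 46 livers and 36 lungs were at or under 3 counts.

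*Cyp24a1*, the mitochondrial enzyme that degrades calcidiol and calcitriol and a classical target of the receptor, was far more abundant in kidney than its partner enzyme. Kidney ranged from 5.09 TPM in CC053 to 239 in CC032, with a median of 66.6. Liver ranged from 0 to 1.39 TPM with a median of 0.07, and lung from 0 to 1.19 with a median of 0.09, each at a median of 1 count. No kidney overlapped a liver or lung in TPM. In CPM the liver of CC033, with the low TMM factor described above, reached 8.48 on 5 counts, above the lowest kidney at 3.95. The log2 fold change of kidney was 8.17 over liver (SE 0.16, limma-voom adjusted p = 8.96e-72) and 9.27 over lung (SE 0.16, adjusted p = 7.25e-77), in 47 of 47 mice for both. The pooled ratio of kidney to liver was 361 (95% exact binomial interval 286 to 462), and 436 without the liver of CC035, which held 13 of the 71 liver counts. That of kidney to lung was 753 (599 to 961). Between liver and lung 42 livers and 41 lungs were at or under 3 counts, so the call there is not resolved at this depth, and the gene was not called with liver higher under 8 of 13 alternatives, 3 of which gave a negative value.

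*Vdr*, the nuclear receptor for calcitriol, was graded over the 3 tissues. Kidney ranged from 60.9 TPM in CC027 to 169 in CC005 with a median of 113, lung from 0.31 to 11.8 with a median of 5.99, and liver from 0 to 1.79 with a median of 0.15. The kidney of CC027, which stood apart in its hepatocyte sum, was lowest in TPM only: in TMM-scaled CPM it held 185 against a median of 148, and the kidney of CC020 was lowest at 106. Every kidney lay above every lung, and lungs lay above livers except at the ends of the ranges. Kidney exceeded lung by 4.74 on the log2 scale (SE 0.08, limma-voom adjusted p = 4.97e-76) and liver by 8.39 (SE 0.11, adjusted p = 2.76e-85), in 47 of 47 mice. Lung exceeded liver by 3.66 (SE 0.11, adjusted p = 3.02e-54), in 46 of 47. The lung of CC015 was the lowest, with 3 *Vdr* counts, and had the lowest sum of the 3 B cell markers among the 47 lungs, at 2.78 CPM. The pooled ratio of lung to liver was 12.1 (95% exact binomial interval 10.3 to 14.3), and 14.0 without that lung and the liver of CC035. Among lungs, *Vdr* showed no relation that passed the test with the 5 macrophage genes (r = 0.12, rho 0.12, permutation p = 0.413, adjusted p = 0.931) or the 4 lung epithelium genes (r = 0.01, rho 0.01, permutation p = 0.969, adjusted p = 0.969).

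*Kl* encodes klotho, the co-receptor that lets FGF23 act on tubule cells, and it was the most abundant kidney member. Kidney ranged from 145 TPM in CC020 to 556 in CC038, with a median of 350. Liver ranged from 0 to 8.21 TPM with a median of 0.27, and lung from 0.18 to 2.42 with a median of 0.74. The lowest kidney was far above the highest library of either other tissue. Kidney exceeded liver by 9.06 on the log2 scale (SE 0.11, limma-voom adjusted p = 1.83e-88) and lung by 9.33 (SE 0.10, adjusted p = 5.08e-93), in 47 of 47 mice. The pooled ratio to liver was 426 (95% exact binomial interval 387 to 469) and that to lung 625 (578 to 677). Between liver and lung the sign depends on the scale. TMM-scaled counts put liver 0.28 above lung on the log2 scale (SE 0.11, adjusted p = 0.0119, under the fold limit), whereas total-count scaling put it 1.07 below (called) and the deposited TPM also gave a negative value.

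The few liver reads of the kidney members were set against *Slc34a1*, the sodium-phosphate cotransporter of the proximal tubule. The pooled count ratio of *Kl* to *Slc34a1* was 0.199 in liver and 0.176 in kidney, and that of *Vdr* was 0.0717 and 0.0482. For *Cyp24a1* the ratio was 0.0328 in liver and 0.0247 in kidney. *Cyp27b1* departed from this, at 0.0153 in liver on 33 counts and 0.00176 in kidney, and *Cyp24a1* counts were 2.15 times those of *Cyp27b1* in liver and 13.98 times in kidney. The liver of CC035 held the most of these reads, with 119 counts of *Kl*, 22 of *Vdr*, 13 of *Cyp24a1* and 515 of *Slc34a1*, and 1297 of the kidney endocytic receptor *Lrp2*. Without that liver the pooled ratio to *Slc34a1* in liver was 0.189 for *Kl*, 0.0808 for *Vdr*, 0.0352 for *Cyp24a1* and 0.0182 for *Cyp27b1*, so the first moved towards the kidney value and the others away from it. The kidney over liver ratio of *Kl* rose from 426 to 581. In lung *Kl* to *Slc34a1* was 0.293, but *Vdr* to *Slc34a1* was 1.88, far from the kidney value. The part of kidney RNA in the liver values was not tested.

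Other genes of vitamin D handling and mineral transport were taken from a list of 47 genes, of which 39 passed the filter on low counts. Between liver and kidney 23 of the 39 were called, 9 higher in liver and 14 higher in kidney, with a median log2 fold change of -0.30 against -0.00 over all genes tested. With total counts in place of TMM, which moved the median of all genes to -0.95, the split was 6 to 23. Among all genes tested the split was 1891 to 2521, and 981 to 5794 with total counts. Of the 10 receptor partners and coregulators 7 were tested, all of them coregulators. The retinoid X receptors *Rxra*, *Rxrb* and *Rxrg* did not pass the filter, so the calls that follow do not cover the receptor partners. *Rxra* was higher in liver than in kidney in 46 of 47 mice. Its pooled ratio was 5.23 (exact binomial interval 4.39 to 6.26), with a kidney median of 3 counts. *Rxrg* was at the floor in both tissues, and *Rxrb* had no counts. With TMM scaling 0 of the 7 tested were called between liver and kidney by limma-voom or edgeR. DESeq2, which uses its own size factors in place of TMM, called 1 (*Ncoa3*, higher in kidney). The count depends on scaling and filter: limma-voom called 1 with DESeq2 size factors and 3 of 9 without the filter on low counts. Without that filter the log2 fold changes of liver over kidney lay between -1.01 and 2.33. With limma-voom as fitted 4 had an unadjusted p under 0.05, and the log2 fold changes lay between -0.95 and 0.26, but 4 were called higher in kidney with total counts. Phosphate transporters were called in both directions (1 of 5 higher in liver and 2 in kidney), as were genes of FGF23, klotho and parathyroid hormone signalling (2 of 9 tested in each direction), and 2 of 3 electron donors of the P450 enzymes were higher in liver. The 23 calls made up 59.0% of the genes tested, against 36.4% of all genes. Between liver and lung 23 of the 39 were also called (59.0% against 55.0% of all genes), and here the direction of the list depends on the scale. The split was 15 higher in liver to 8 in lung as fitted, 11 to 11 with DESeq2, 10 to 21 with total counts and 9 to 15 on log2(TPM + 1), while all genes split 2901 to 3763 as fitted and 1186 to 7465 with total counts. Between lung and kidney 23 were called (59.0% against 46.1%), 5 higher in lung and 18 in kidney, or 7 and 14 on log2(TPM + 0.1).

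All 3 genes listed for handling of the precursor and for calcidiol formation (*Dhcr7*, *Cyp27a1* and *Cyp3a11*) were higher in liver, which is not a measure of precursor supply. *Cyp3a11*, a drug-metabolising P450 with some activity on vitamin D, stood at medians of 708 TPM in liver and 0.67 in kidney (log2 fold change 10.90). *Cyp27a1*, the mitochondrial sterol hydroxylase that can also form calcidiol, stood at 524 and 59.4 TPM (4.10). *Alb*, whose protein also carries vitamin D weakly, had a log2 fold change of 10.84. *Klb*, the klotho relative that serves other endocrine FGFs in liver, was at 32.3 TPM in liver against 0.62 in kidney (6.38), the reverse of *Kl*. These were the 4 largest called liver differences on the list.

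On the kidney side 5 of 6 genes of carrier uptake and 5 of 6 tested genes of calcium transport were higher than in liver. *Slc34a1* had a kidney median of 3303 TPM and a log2 fold change of -9.25 for liver against kidney. *Cubn*, which encodes cubilin, was at 381 TPM (-8.76) and *Lrp2*, which encodes megalin, at 1378 TPM (-8.54). *Calb1*, the calcium-binding calbindin of the distal tubule, was at 179 TPM (-8.43). These 4 differences were the largest called on that side. The calcium sensor *Casr* stood at 46.2 TPM in kidney and the parathyroid hormone receptor *Pth1r* at 28.2 TPM. The partners of the members were thinly covered: *Rxra*, the retinoid X receptor, had medians of 11, 3 and 3 counts in liver, lung and kidney, and *Fgfr1* 0, 13 and 3. Neither passed the filter, and both have 3 named transcripts, so the uncertainty given above for the level of *Cyp2r1* applies to them too. *Fgfr4*, another FGF receptor, was not called, and its direction depends on the scale: the medians were 22.4 TPM in liver and 35.9 in kidney, whereas the log2 fold change of liver over kidney was 0.28 with TMM and -0.68 with total counts. *Fgf23* had a median count of 0 in all 3 tissues.

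Across the 47 kidneys the members fell into a variable and a steady set. The biological coefficient of variation, the spread that remains after counting error is taken out, was 0.793 for *Cyp27b1*, 0.755 for *Gc* and 0.671 for *Cyp24a1*. These values lay above 96.8%, 96.3% and 94.8% of the 11209 kidney genes. For *Kl* it was 0.206 and for *Vdr* 0.198, near the kidney median of 0.216. From lowest to highest kidney, TPM differed 28.2-fold for *Cyp27b1*, 47.0-fold for *Cyp24a1* and 25.1-fold for *Gc*, but 3.83-fold for *Kl* and 2.78-fold for *Vdr*. Without the lowest kidney the range was 25.2-fold for *Cyp24a1* (CC053 left out), 16.4-fold for *Gc* (CC021 left out) and 25.7-fold for *Cyp27b1* (CC031 left out). The SD of log2 CPM was 1.19 for *Cyp27b1*, where counting alone would give 0.32, and 1.14 for *Cyp24a1*, where it would give 0.07. In liver the value for *Gc* was 0.195 and that for *Cyp2r1* 0.382, against a median of 0.225. In lung *Gc* reached 1.03 and *Vdr* 0.244, against 0.220. *Gc* thus had its lowest value in liver, its main organ.

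**Figure D3:**
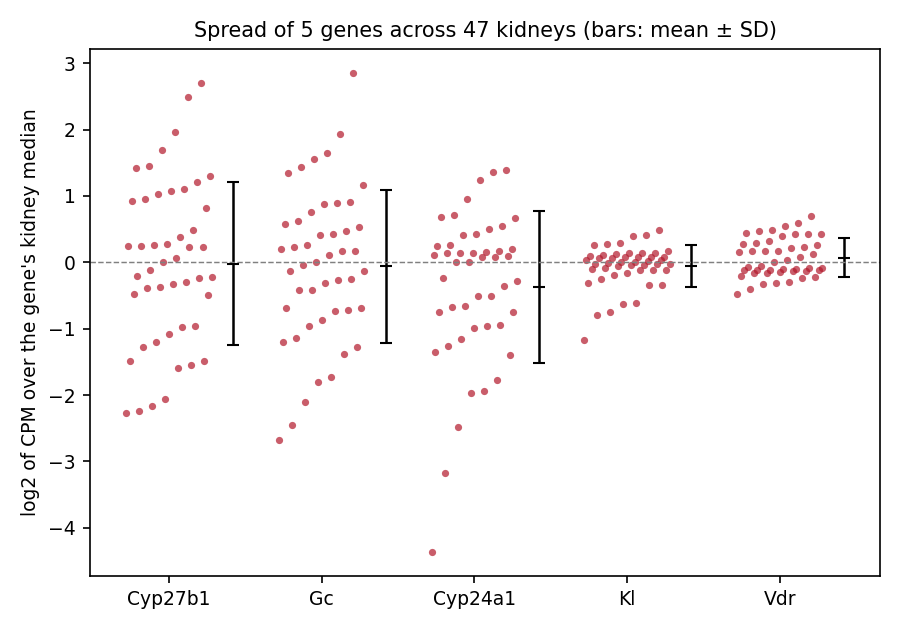
The log2 of CPM over the gene's own kidney median for 5 genes, with 1 point per kidney (n = 47) and a bar at the mean ± SD of the points. *Cyp27b1*, *Gc* and *Cyp24a1* spread over several log2 units, and *Kl* and *Vdr* stay within about 1 unit of the median except for 1 low kidney of *Kl* (CC020).

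The kidney of CC020 was low in both steady genes. It had the lowest CPM of both *Kl* (260, median 583) and *Vdr* (106, median 148), together with the lowest sum of the 8 proximal tubule genes (3490 CPM, median 6768) and the highest of the macrophage genes (247 CPM, median 68.1). Its *Cyp27b1* was nonetheless the highest of the 47 in TPM (26.3, with CC068 close at 25.9), on 71 counts. In CPM it was high too, at 22.0, but below the 25.7 of CC059. Across kidneys *Kl* and the summed log2 CPM of the 8 proximal tubule genes gave r = 0.31 (rho 0.30, permutation p = 0.0342, adjusted p = 0.185), and r = 0.21 without the 2 farthest kidneys. The part of tubule content in the level of *Kl* was not tested.

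The activating and the inactivating enzyme showed no relation that passed the test. Their correlation across kidneys was r = 0.01 (95% Fisher interval -0.27 to 0.30, rho 0.05, permutation p = 0.92, adjusted p = 0.921 over 10 pairs), and r = 0.03 without the 2 farthest kidneys. Of the 47 kidneys, 12 were above the median of both genes, 13 above neither, 11 above that of *Cyp27b1* alone and 11 above that of *Cyp24a1* alone. The TPM of *Cyp24a1* was 10.7 times that of *Cyp27b1* in the median kidney and the higher of the pair in 46 of 47. The ratio ran from 0.917 in CC053, with 5.09 TPM of *Cyp24a1* and 5.55 of *Cyp27b1*, to 186 in CC032, with 239 and 1.29. The kidney of CC068 was high in both, with 159 TPM of *Cyp24a1* and 25.9 of *Cyp27b1*. The mice had 1 diet by label, and calcium, phosphate and hormone levels were not analysed here.

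**Figure D4:**
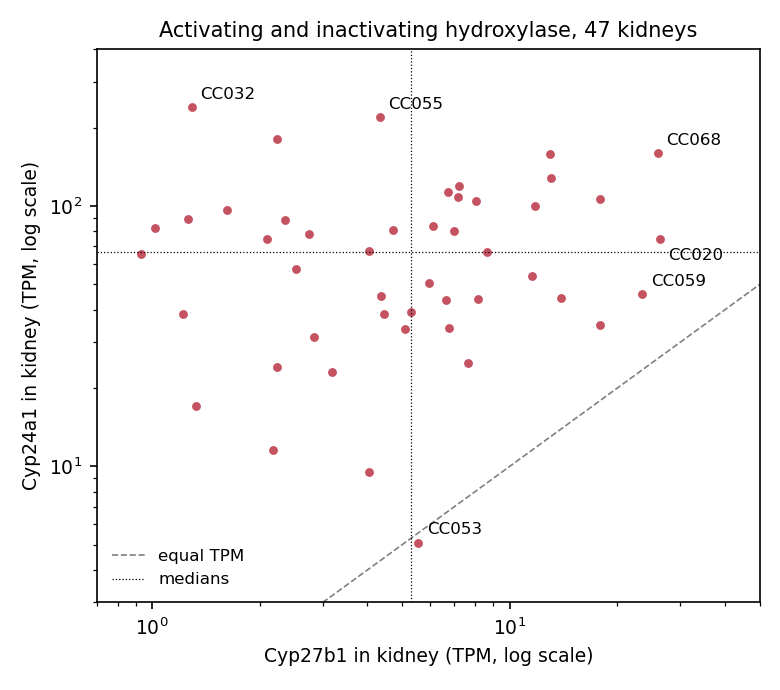
*Cyp24a1* against *Cyp27b1* in kidney, both in TPM on log axes, with 1 point per mouse (n = 47), dotted lines at the medians (66.6 and 5.31 TPM) and a dashed line at equal TPM. The points lie on all sides of the crossing medians in similar number (12, 11, 11 and 13), and CC053 alone lies below the dashed line.

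None of the 10 pairs of members within kidney passed an adjusted p of 0.1, and 1 had an unadjusted permutation p under 0.05. That pair was *Vdr* and *Kl* (r = 0.36, 95% Fisher interval 0.08 to 0.59, rho 0.34, permutation p = 0.013, adjusted p = 0.13), with r = 0.38 without the 2 farthest kidneys. It passed on TMM-scaled log2 CPM (r = 0.41, adjusted p = 0.0418), on TPM without TMM (r = 0.65, adjusted p = 1e-04) and without the 4 strains whose libraries stood apart (r = 0.42, adjusted p = 0.0503). It did not pass with Spearman's rho or without the 2 farthest kidneys. On TPM without TMM more of the partner relations given below passed as well, so the higher r there is not particular to this pair. The same mouse gave all 3 tissues, so each member could be compared with itself in another organ wherever its median count was above 3 in both. None of these 8 relations passed, and none had an unadjusted p under 0.05. The widest was *Gc* in liver and kidney (r = 0.27, 95% Fisher interval -0.02 to 0.51, rho 0.25, permutation p = 0.0671, adjusted p = 0.258), which passed on log2 CPM alone (r = 0.37, adjusted p = 0.0824). For *Gc* in liver and lung r was 0.05 (rho -0.00), with an interval of -0.24 to 0.33.

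Within kidney, 5 members were set against 10 mineral transport partners with a median above 3 counts, and 6 of the 50 relations passed an adjusted p of 0.1. *Kl* took 3 of them. It rose with *Pth1r* (r = 0.53, rho 0.47, permutation p = 0.00018, adjusted p = 0.009), and r was 0.48 without the 2 farthest kidneys, which kept it past the threshold. It rose with *Slc34a1* (r = 0.44, rho 0.38, permutation p = 0.00209, adjusted p = 0.0297) and with *S100g*, the small calcium-binding calbindin (r = 0.39, rho 0.36, permutation p = 0.00585, adjusted p = 0.0585). Without the 2 farthest kidneys neither passed: r with *Slc34a1* was 0.41, little changed (permutation p = 0.00517, adjusted p = 0.129), and r with *S100g* was 0.31 (permutation p = 0.038, adjusted p = 0.357). The summed log2 CPM of each marker list (proximal tubule, distal convoluted tubule and collecting duct) was also regressed out. After that *Kl* and *Pth1r* had r = 0.49 and *Kl* and *Slc34a1* r = 0.34, of which the former passed.

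**Figure D5:**
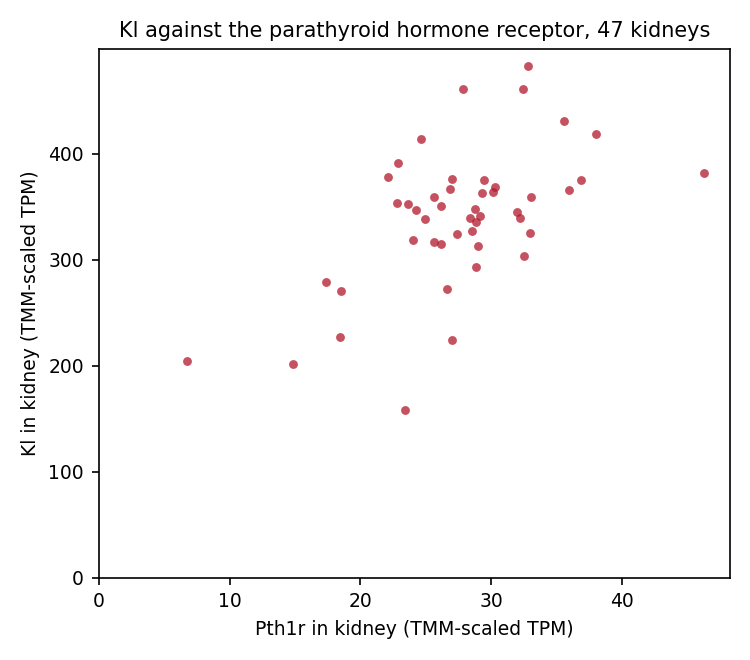
*Kl* against *Pth1r* in 47 kidneys, both as TMM-scaled TPM on linear axes, with 1 point per mouse. The kidneys lowest in *Pth1r* are also low in *Kl*, and r on rank-normalised values is 0.53.

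*Cyp27b1* fell as *Slc8a1*, a sodium-calcium exchanger of the distal tubule, rose (r = -0.47, rho -0.41, permutation p = 0.00099, adjusted p = 0.0247), and likewise with *Casr* (r = -0.37, rho -0.30, permutation p = 0.00988, adjusted p = 0.0823). *Gc* rose with *Slc34a3*, another sodium-phosphate cotransporter of the tubule (r = 0.43, rho 0.47, permutation p = 0.00238, adjusted p = 0.0297). Without the 2 farthest kidneys r was -0.36, -0.27 and 0.34 in that order and none passed (permutation p = 0.0162, 0.0727 and 0.0206, adjusted p = 0.258, 0.38 and 0.258), so the calls do not hold without those kidneys. None of the 5 members had a relation with library depth that passed, with r between -0.07 and 0.11 (rho between -0.13 and 0.09, permutation p from 0.456 to 0.805, adjusted p = 0.931 for each).

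The genes whose levels ordered the strains most like each member were sought in its main organ, among tested genes with a mean of at least 5 CPM, by Spearman's rho over 47 libraries. In liver, *Gc* was most like *Nrbp1* (0.63), *Azgp1* (0.62) and the prothrombin gene *F2* (0.62), out of 7218 genes with a median rho of 0.05. *Cyp2r1* was most like *Cxadr* (0.57), *Gng11* (0.55) and *Pmvk* (0.55). In kidney, out of 7397 genes, *Kl* was most like *Atmin* (0.59), *Dennd5b* (0.55) and *Ddah1* (0.55). *Vdr* was most like *Eif4b* (0.54), the tight junction gene *Cldn2* (0.51) and *Lhx1* (0.51). *Cyp24a1* was most like *Rap2a* (0.53), *Plekha1* (0.50) and *Prkx* (0.46), and *Cyp27b1* most like *Dhx38* (0.50), the muscle filament gene *Des* (0.48) and *Wdr90* (0.45). These are the highest values over all genes compared and carry no test.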

How the data were processed

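RNA-seq libraries from liver, lung and kidney of 47 CC strains were grouped by the tissue named in the labels. The authors aligned filtered reads to strain-specific pseudo-genomes (NCBIM37 with RefSeq transcripts) with RSEM and STAR (v2.5.3a, per the submitters' processing notes) and counted uniquely aligned reads. They deposited an expected count, a TPM and an FPKM value per gene. The expected counts entered the tests, with 25 values that were not whole rounded, the deposited TPM gave levels per transcript length, and the FPKM was not used. Library totals ranged from 1738046 to 42158454, and values at or under 3 counts were taken as the floor.

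The 6 members, the pathway and marker lists and the tests were chosen with earlier results of these data known. A gene was tested if 30% or more of the libraries had it above 1 CPM (12127 of 24423), and these were fitted with limma-voom 3.58.1 in R 4.3.3 on TMM-scaled counts, with tissue and strain as covariates and Benjamini-Hochberg adjustment over all genes tested. Strain is the replicate block, since the paper's methods take the 3 tissues from the same mouse, and the deviations of the tissues from their means correlated with a median r of 0.17 to 0.21 within a mouse. The authors' batch term is not in the labels and was left out. Alternatives were edgeR's quasi-likelihood test, DESeq2, other scalings, filters and thresholds, limma on log2 TPM, and fits without strains. A ratio of summed counts between tissues is taken over TMM-scaled library sizes and carries an exact binomial interval. Relations across strains were computed on TMM-scaled TPM turned into normal scores by rank, with two-sided tests of 100000 permutations adjusted within each family. In these relations a marker list entered as the sum of the TMM-scaled log2 CPM of its genes, whereas marker sums given as levels are sums of CPM. The biological coefficient of variation is edgeR's tagwise estimate within a tissue. The tissue fit and the correlation test were tested on simulated data. Beside the members, the text names the 4 largest called pathway genes in each direction, the listed partners and neighbouring receptors and enzymes, and the 3 genes most like each member. The genes and libraries named beside a low or high value (*Pfdn4*, *G6pc*, *Ttr*, *Slc27a2*, CC010, CC015, CC020, CC030, CC035 and CC061 among them) were chosen after their values were seen.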

Additional observations from a re-analysis of the deposited data

How the results depend on the processing

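Over 13 alternatives, all 6 member calls between liver and kidney kept their direction and stayed past the threshold. Without the replicate block, 6, 3 and 6 members were called between liver and kidney, liver and lung, and lung and kidney. Of all 12127 genes tested, 4451, 6693 and 5618 were called there. The same 23 genes of the pathway list were called between liver and kidney without the block, in the same direction. The pathway count between liver and kidney moved to 35 of 39 with no limit on the fold change. Of all 12127 genes 10665 were called then, a similar share, so the list did not differ from all genes in that setting. Of 207 log2 fold changes of single members under the alternatives, 196 kept direction and call, 8 passed the threshold that the reported value missed and 3 changed sign. The alternatives with an adjusted p of at most 0.01 and with no fold limit reuse the reported fit. Their fold changes could not differ, and dropping the fold limit could not lose a call. Those 3 were *Kl* in liver against lung, at -1.07 with total counts, -0.34 on log2(TPM + 1) and -0.97 on log2(TPM + 0.1). Relative to the median of all genes, which total counts moved to -1.43 in that comparison, *Kl* stood at 0.33 as reported and at 0.36 with total counts. *Cyp2r1* in lung against kidney was called under 7 alternatives, among them the one with no fold limit, and reached 1.71 on log2(TPM + 0.1). It left the fit by the filter when only those tissues entered.

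The correlation counts were less stable. The count between tissues was 0 as reported and 1 on TMM-scaled log2 CPM. The count between members within kidney was 0 as reported and 1 on TMM-scaled log2 CPM, on TPM without TMM, and without strains CC015, CC027, CC033 and CC035, a setting chosen after seeing the data. With the partners it was 6 as reported, 3 with Spearman's rho, 22 on TPM without TMM and 1 without the 2 strains farthest on the x axis. The cause was not tested. Of the 5 kidney members, 3 had an SD of log2 level above the median gene as reported, 3 with total counts, 4 on deposited TPM and 3 without strains CC032 and CC042. The member added on deposited TPM was *Kl*, with an SD of 0.489 against a median of 0.453. As many genes lie above the median gene as below it, so this count alone sets the members apart from no other genes. Depth limits *Cyp2r1* in kidney, and *Cyp27b1* and *Cyp24a1* outside it, where most libraries held 3 counts or fewer.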
